A study of Homo sapiens with 12 samples.

Results

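HaCaT keratinocytes carrying a short hairpin RNA against NRF2 (shNRF2) were compared with HaCaT cells carrying a control hairpin (shControl), using 6 of the 12 libraries of the series, 3 of each derivative. HaCaT is an established line of human keratinocytes, the cells that make up most of the epidermis. Each derivative was sequenced as total RNA without treatment, after 24 h in 100 µM hydrogen peroxide (H2O2), and after 24 h with 25 µg/mL of cerium oxide nanoparticles (CeO2), with 1 library for each combination. The labels give the genotype of shControl as WT and that of shNRF2 as NRF2 knockdown. All groups therefore carry a hairpin, and the 3 libraries of a derivative are the same cells under 3 treatments, not 3 separate knockdowns. Whether a derivative is a clone or a pool, and how many hairpins were tried, is not stated in the labels, so the silencing of NRF2 cannot be told apart from any other difference between these derivatives. The remaining 6 libraries are HaCaT cells with hairpins against MLL1 or UTX (shMLL1 and shUTX), which entered the same fit and serve here as further points of comparison.

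NRF2, encoded by NFE2L2, is a transcription factor of the cap'n'collar family that is held in the cytoplasm and degraded through its partner KEAP1. Oxidants and electrophiles modify KEAP1, after which NRF2 accumulates, enters the nucleus, pairs with a small MAF protein and binds antioxidant response elements in front of its target genes. These genes serve glutathione and thioredoxin metabolism, the supply of NADPH, iron handling and detoxification. In skin, the pathway is known for protection against oxidants and for effects on the cornified envelope and barrier of the epidermis. CeO2 nanoparticles are known for switching between oxidation states of cerium, and H2O2 is a direct oxidant.

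Of the 61498 entries in the count tables, 1587 were read by name, 535 of them protein-coding. They lie within GRCh38 chromosome 5 from 218241 to 44820428 (652 entries), chromosome 9 from 19375715 to 37801437 (362), chromosome 11 from 236546 to 842545 (56), chromosome 18 from 3247481 to 12344320 (193), chromosome 19 from 867630 to 6393981 (287) and the mitochondrial genome (37). Inside these stretches all 5 cytosolic ribosomal protein genes averaged 30 CPM or more over the 6 libraries. CPM are counts scaled to a library total of 1e6. Every cell uses these genes at high levels, and their 5 means ran from 859 to 3520 CPM. Outside the stretches 7 of 79 averaged 30 CPM or more, and 56 averaged under 1 CPM. Names outside the stretches were therefore not taken as the source of the reads. The members of the classical NRF2 programme that lie elsewhere in the genome were not read.

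The targeted gene itself lies outside the stretches. NFE2L2 (chromosome 2, 177227595 to 177392697) had 1 count in the untreated shControl library, 12 with H2O2 and 16 with CeO2, and 0 in each of the 3 shNRF2 libraries. A count of 0 allows up to 3 counts, which is 0.425, 0.497 and 0.381 CPM in these libraries. The shMLL1 libraries had 1, 1 and 3 counts and the shUTX libraries 1, 1 and 4, so a low count of this entry was also seen without the NRF2 hairpin. Because the entry lies outside the stretches, these counts are not read as NRF2 mRNA and do not check the knockdown.

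Total counts in the 6 libraries ran from 5936696 to 7670446 (5388335 to 7670446 over all 12). The untreated shControl library stood apart from the other 5. Its scaling factor by TMM (trimmed mean of M values, the method used to make libraries comparable) was 0.914, against 1.02 to 1.05 in the others. Its Pearson r with the exposed shControl libraries, over log2 CPM of all tested entries, was 0.979 and 0.975, against 0.991 between those libraries and 0.991 to 0.993 among the shNRF2 libraries. Counts of called entries are given with and without it. Levels are CPM scaled by TMM, always in the order untreated, H2O2, CeO2. Fold changes and standard errors (SE) come from edgeR's quasi-likelihood fit with treatment as a block, and an entry was called when its p, adjusted over all 10800 entries tested by the method of Benjamini and Hochberg, was under 0.05.

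In the stretches, 48 of the 488 entries that passed the filter of 1 CPM in 3 libraries differed between shNRF2 and shControl (9.84%), against 576 of 10800 over the whole table (5.33%). Of the 48, 19 were higher in shNRF2 (3.89% of the matched entries, against 2.78% of all) and 29 lower (5.94%, against 2.56%), and 45 were protein-coding. The median log2 change was -0.08 over the matched entries and 0.01 over all entries. All 48 had the same sign in each of the 3 treatments. In 46 the shNRF2 and shControl libraries did not overlap, which held for 121 of the 488 matched entries (24.8%) and for 18.7% of all entries. ADAMTS12 and TJP3 were the exceptions. A further 78 entries had an unadjusted p under 0.05 without passing the adjusted threshold, and 1099 of the 1587 entries were not tested because of the filter.

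The count was 64 without the untreated shControl library, with 43 of the 48 among them, and it fell to 28 without the H2O2 shControl library, 27 without its shNRF2 counterpart and 24 without the CeO2 shNRF2 library. With only the 6 compared libraries, which leave 2 residual degrees of freedom, 16 of the 48 were called. CA9, MIR210HG, CDH10, BASP1, MOB3A, ACO1, RFX2, GPX4 and SEMA6B (lower) and CCDC152, ONECUT3 and TINCR (higher) were called under each of the 17 settings tried. APCDD1 kept its call in the 15 that gave it a value, since it did not pass the filter at 5 CPM and DESeq2 gave it no adjusted p. APCDD1 and MATK passed the main filter only through the shNRF2 libraries, where they were high, so their calls carry no weight. The other 35 lost the call under at least 1, and none of the 48 changed sign.

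**Figure D1:**
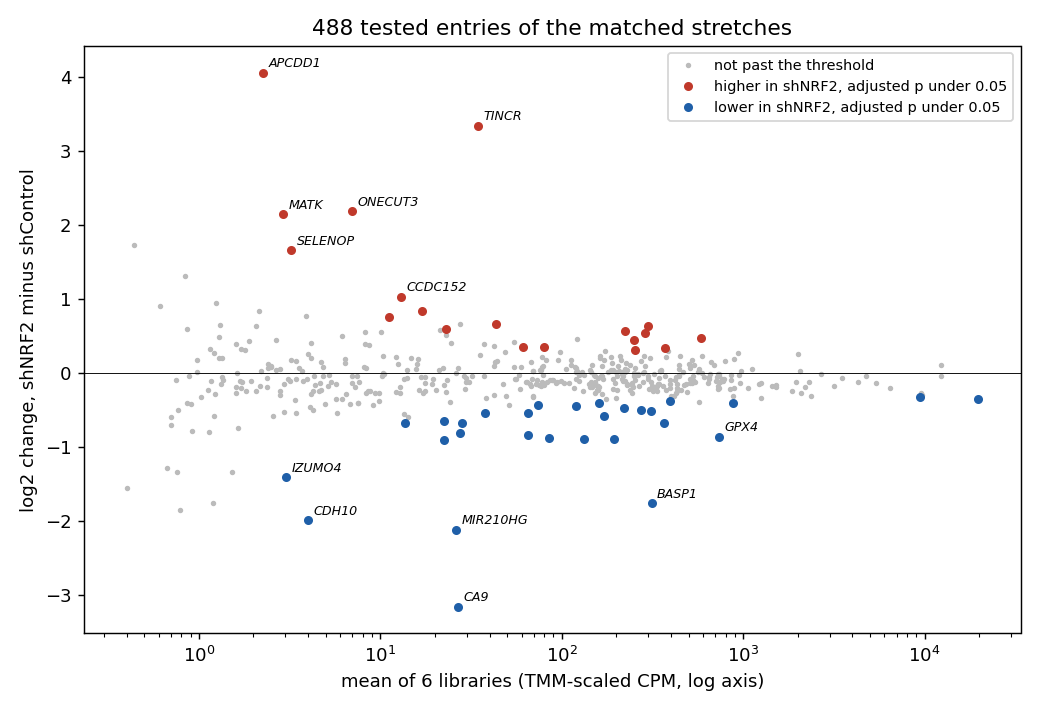
Change in shNRF2 against level for the 488 tested entries of the stretches: the horizontal axis is the mean of the 6 libraries in TMM-scaled CPM on a log axis, the vertical axis the log2 change (shNRF2 minus shControl), red and blue points are the 19 higher and 29 lower entries past the threshold, and grey points the rest. Changes of more than 2-fold, labelled together with GPX4, lie mostly below 100 CPM, with BASP1 as the exception.

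Among genes of redox and iron metabolism, the field NRF2 is best known for, GPX4 and ACO1 were lower in shNRF2 and SELENOP was higher. GPX4 (chromosome 19, 1103926 to 1106791) encodes the selenium-containing glutathione peroxidase that reduces lipid hydroperoxides in membranes and holds back ferroptosis. Its level was 662, 1054 and 1144 CPM in shControl and 475, 609 and 485 CPM in shNRF2. Every shNRF2 library was below every shControl library, and the gap was narrowest without treatment, where shControl itself was lowest. GPX4 was 1.81-fold lower over the 3 treatments (log2 -0.86 ± 0.15 SE, adjusted p = 0.00273). Within treatments it was 1.39-fold lower untreated, 1.73-fold lower in H2O2 and 2.36-fold lower in CeO2.

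ACO1 (chromosome 9, 32384603 to 32454769) encodes cytosolic aconitase, which without its iron-sulphur cluster becomes iron regulatory protein 1. It held 180, 171 and 164 CPM in shControl and 99.2, 83.5 and 96.6 CPM in shNRF2. The groups were far apart in each treatment and neither moved much with exposure. ACO1 was 1.84-fold lower (log2 -0.88 ± 0.08, adjusted p = 1.32e-05), with ratios to shControl of 0.550, 0.488 and 0.590 in the 3 treatments. Their exact 95% intervals, which cover counting error only, spanned 0.440 to 0.647 in all.

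SELENOP (chromosome 5, 42799880 to 42887392) encodes the secreted selenoprotein that carries selenium between tissues, and was low in all libraries: 1.70, 1.201 and 1.67 CPM in shControl and 5.81, 2.98 and 5.97 CPM in shNRF2. All 3 shNRF2 values were above all shControl values. It was 3.17-fold higher (log2 1.67 ± 0.32, adjusted p = 0.00631), but lost the call without the CeO2 shNRF2 library. CCDC152, a coiled-coil gene on the opposite strand (chromosome 5, 42756801 to 42802360), overlaps SELENOP and moved the same way. It held 8.06, 10.4 and 7.12 CPM in shControl and 17.7, 18.9 and 15.9 CPM in shNRF2, 2.05-fold higher (log2 1.03 ± 0.16, adjusted p = 0.00158). Whether counting used the strand is not stated, so reads of these genes could be assigned to either.

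The other 7 of the 10 tested members of the redox and iron list did not pass the threshold, and the list's median log2 change was -0.22, against -0.08 over the matched entries. Of all matched entries 9.84% were called in either direction, and 5.33% over the whole table. TALDO1, the transaldolase of the pentose phosphate pathway, had a log2 change of -0.34 ± 0.10 (adjusted p = 0.0799), and LONP1, the protease that clears oxidised proteins in mitochondria, -0.31 ± 0.10 (adjusted p = 0.0831). NNT, the transhydrogenase that makes mitochondrial NADPH, was at -0.01 ± 0.08. TXNDC2, a thioredoxin-domain gene near the filter limit, was at -1.27 ± 0.77, and ALKBH7, NUDT2 and APTX, which act in repair or nucleotide clean-up, lay between -0.12 and -0.04.

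Both tested genes of the hypoxia list were lower in shNRF2, beside 5.94% called lower among matched entries and 2.56% among all. The list holds only CA9 and MIR210HG and was chosen with earlier results known, so this count is a description. CA9 had the lowest log2 change of all 48. CA9 encodes carbonic anhydrase IX, a surface enzyme that exports acid and a standard marker of the hypoxia response. MIR210HG is the host transcript of microRNA 210, another hypoxia-induced RNA. The 250 bases before the RefSeq start of each gene (GRCh38.p14) are shown because both hold the letters ACGTG on 1 of the strands, the core of the hypoxia response element, in capitals.
CA9, chr9:35673678-35673927, plus strand: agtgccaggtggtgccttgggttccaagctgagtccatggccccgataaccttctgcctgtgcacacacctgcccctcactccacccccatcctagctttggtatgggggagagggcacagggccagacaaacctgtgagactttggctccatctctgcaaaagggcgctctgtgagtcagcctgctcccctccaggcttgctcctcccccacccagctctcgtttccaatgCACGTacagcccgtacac
MIR210HG, chr11:568458-568707, minus strand: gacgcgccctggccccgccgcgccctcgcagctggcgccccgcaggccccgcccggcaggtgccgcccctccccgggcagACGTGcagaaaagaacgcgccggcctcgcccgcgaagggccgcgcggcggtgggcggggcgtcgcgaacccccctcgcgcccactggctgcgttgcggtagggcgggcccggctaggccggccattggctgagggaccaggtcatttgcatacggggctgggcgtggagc
Counted from the start, where -1 is the last base shown, the core lies at -18 to -14 in CA9 (as CACGT, on the other strand) and at -170 to -166 in MIR210HG.

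CA9 (chromosome 9, 35673856 to 35681159) was at 59.2, 45.0 and 40.9 CPM in shControl and at 3.83, 5.96 and 6.35 CPM in shNRF2. MIR210HG (chromosome 11, 565660 to 568457) was at 52.2, 41.0 and 35.0 CPM in shControl and at 8.79, 11.1 and 9.40 CPM in shNRF2. In both genes the untreated library was the highest of shControl and the lowest of shNRF2, so the ratio was widest without treatment. CA9 was 15.5-fold lower untreated, 7.55-fold lower in H2O2 and 6.43-fold lower in CeO2, and MIR210HG 5.94-fold, 3.69-fold and 3.72-fold lower. Over the 3 treatments the log2 changes were -3.15 ± 0.22 for CA9 (adjusted p = 5.81e-07) and -2.12 ± 0.17 for MIR210HG (adjusted p = 2.78e-06). CA9 overlaps ARHGEF39 on the other strand and MIR210HG holds the microRNA gene itself, which leaves the source of some reads uncertain. TPM2, which lies next to CA9 on chromosome 9, was also lower, as given below with the cytoskeleton.

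In the list of epidermal barrier genes, 4 of the 7 tested (TINCR, AQP3, ACER2 and TJP3) were called higher in shNRF2 and none lower, beside 3.89% higher among matched entries and 2.78% among all. The list was chosen with earlier results for TINCR, AQP3 and ACER2 known, so this count and the list's median of 0.64 are descriptions. TINCR (chromosome 19, 5558167 to 5578349), first described as a non-coding RNA that promotes the late steps of epidermal differentiation and annotated as coding here, had the highest log2 change among genes of at least 5 CPM. It stood at 6.97, 6.41 and 5.44 CPM in shControl and at 66.0, 61.9 and 61.5 CPM in shNRF2. The 2 groups were separated about equally in all treatments, with ratios of 9.47, 9.67 and 11.3. TINCR was 10.2-fold higher (log2 3.35 ± 0.18, adjusted p = 5.53e-08). The small pseudogene SNRPEP4 lies within it on the same strand.

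AQP3 (chromosome 9, 33441154 to 33447633), the water and glycerol channel of the basal epidermis, held 291, 197 and 213 CPM in shControl and 372, 308 and 406 CPM in shNRF2. The lowest shNRF2 library was above the highest shControl library by a small margin, and the ratio was 1.28 untreated, 1.56 in H2O2 and 1.91 in CeO2. Over the treatments AQP3 was 1.56-fold higher (log2 0.64 ± 0.12, adjusted p = 0.0045). ACER2, an alkaline ceramidase that releases sphingosine from ceramide (chromosome 9, 19409059 to 19452020), was at 9.76, 15.4 and 11.6 CPM in shControl and 20.4, 23.8 and 20.8 CPM in shNRF2. It was 1.79-fold higher (log2 0.84 ± 0.13, adjusted p = 0.00146). AQP3 and ACER2 kept the call without any 1 library and lost it with only the 6 compared libraries.

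TJP3, the tight junction protein ZO-3 (chromosome 19, 3708109 to 3750813), ran 45.4, 25.6 and 30.8 CPM in shControl and 56.4, 41.1 and 62.5 CPM in shNRF2. The untreated shControl library was above the H2O2 library of shNRF2, so the groups overlapped, although shNRF2 was higher in each treatment. Its log2 change was 0.66 ± 0.18 (adjusted p = 0.0493), and the call was lost without any 1 of the compared libraries other than the untreated shControl library, and in 10 of the 17 settings in all. The desmosomal plakophilin PKP3 was at 0.03 ± 0.10, the glucosylceramidase GBA2 at -0.01 ± 0.08 and the epithelial chemokine CCL28 at 0.39 ± 0.11 (adjusted p = 0.0517). AQP7, ACER1, IFNK and CCL27 did not pass the filter.

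**Figure D2:**
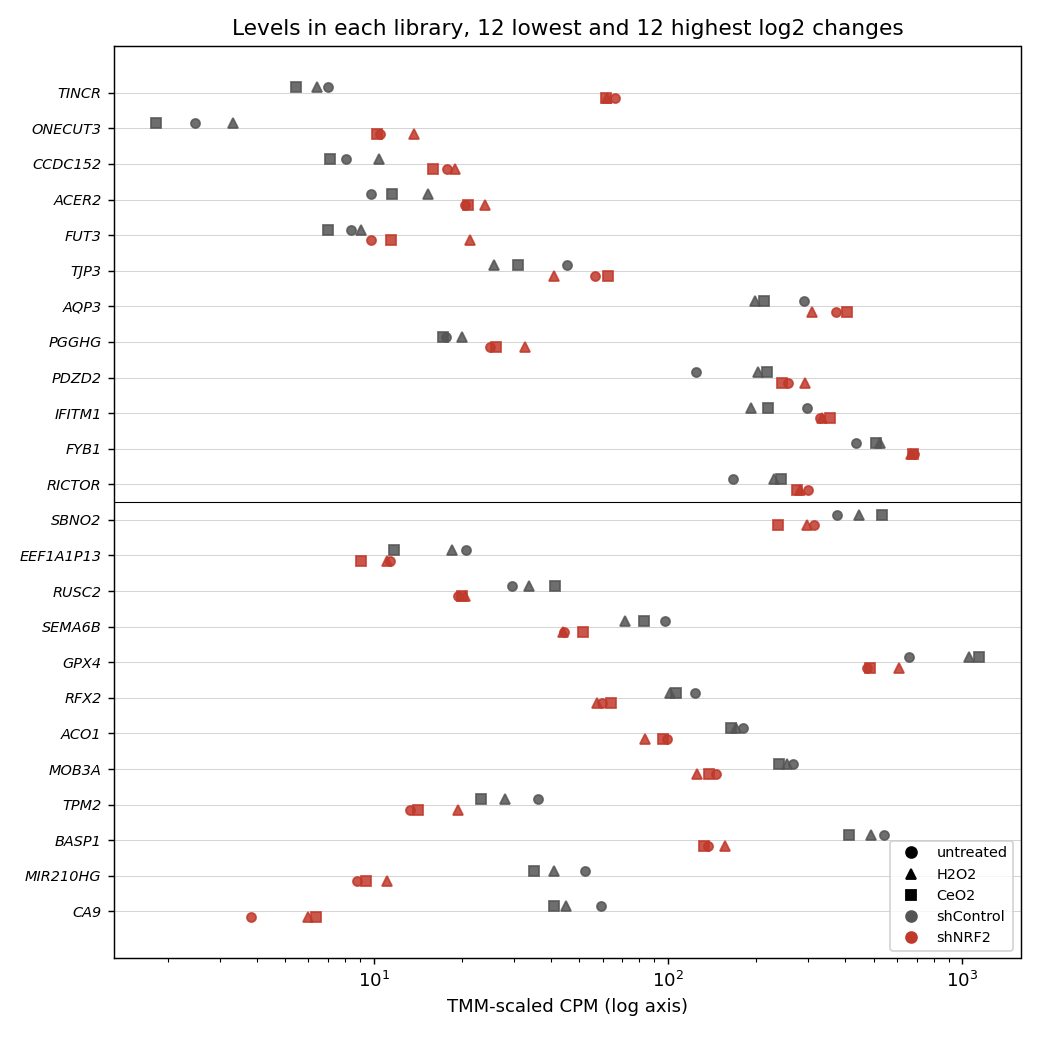
Levels of the 12 genes with the highest and the 12 with the lowest log2 change past the threshold and a mean of at least 5 CPM: the horizontal axis is TMM-scaled CPM on a log axis, each point is 1 library, grey for shControl and red for shNRF2, with the shape giving the treatment. The groups are separate in every row but that of TJP3, and in TINCR, CA9 and BASP1 the gap is wider than the spread within each group.

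Among 6 tested genes of axon guidance and growth cones and 18 of the cytoskeleton, adhesion and junctions, 7 were called lower and 1 higher in shNRF2, beside 5.94% lower and 3.89% higher among matched entries and 2.56% and 2.78% among all. BASP1 (chromosome 5, 17065598 to 17276843), a membrane-bound protein of growth cones that also acts as a transcriptional cosuppressor, held 543, 491 and 414 CPM in shControl and 137, 156 and 133 CPM in shNRF2. It was 3.38-fold lower (log2 -1.76 ± 0.09, adjusted p = 5.53e-08) with ratios of 0.253, 0.317 and 0.321 in the 3 treatments. SEMA6B, a transmembrane semaphorin that guides axons (chromosome 19, 4542593 to 4559808), was at 97.8, 71.6 and 82.7 CPM in shControl and 44.4, 44.1 and 51.6 CPM in shNRF2. The shControl values spread more than those of shNRF2, with no overlap. It was 1.79-fold lower (log2 -0.84 ± 0.11, adjusted p = 3.13e-04). In the axon guidance list these 2 were the called genes, and the median was -0.55.

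In the list of cytoskeleton, adhesion and junction genes, 5 of 18 tested were lower and 1 was higher, with a median of -0.23. CDH10, a cadherin best known from brain (chromosome 5, 24487100 to 24644978), stood at 5.89, 8.01 and 5.30 CPM in shControl and 1.70, 1.33 and 1.65 CPM in shNRF2, 3.96-fold lower (log2 -1.98 ± 0.31, adjusted p = 0.00151). TPM2, a tropomyosin that lines actin filaments (chromosome 9, 35681992 to 35690121), was at 36.1, 28.0 and 23.2 CPM in shControl and 13.3, 19.4 and 14.1 CPM in shNRF2. The ratio was 0.369 untreated, against 0.691 and 0.609 under exposure. TPM2 was 1.86-fold lower over the treatments (log2 -0.90 ± 0.17, adjusted p = 0.00631), a call lost with only the 6 compared libraries.

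RUSC2 (chromosome 9, 35490127 to 35561898), an adaptor that links vesicles to kinesin transport, was at 29.6, 33.6 and 41.4 CPM in shControl and 19.4, 20.4 and 20.0 CPM in shNRF2. The shNRF2 libraries were nearly equal and all below shControl. It was 1.74-fold lower (log2 -0.80 ± 0.15, adjusted p = 0.00548), a call lost without the CeO2 shNRF2 library. The actin-binding RAI14 and the tubulin TUBB6 had log2 changes of -0.47 ± 0.09 and -0.40 ± 0.10, called in all but 2 and 6 of the 17 settings. PDZD2, a large multi-PDZ scaffold (chromosome 5, 31639410 to 32110931), was the higher member, at 124, 202 and 217 CPM in shControl and 256, 292 and 245 CPM in shNRF2 (log2 0.57 ± 0.13, adjusted p = 0.0173). Its ratio was 2.06 untreated and 1.13 in CeO2, and the call was lost without either H2O2 library or the untreated shNRF2 library.

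Of 32 tested genes of transcription and chromatin, 3 were lower and 1 higher, and the median was -0.10. Among matched entries 5.94% were called lower and 3.89% higher, and among all entries 2.56% and 2.78%. ONECUT3, a cut homeobox factor (chromosome 19, 1752373 to 1780988), was at 2.48, 3.34 and 1.81 CPM in shControl and at 10.5, 13.7 and 10.3 CPM in shNRF2. The separation was similar in all treatments, with ratios of 4.23, 4.12 and 5.68. ONECUT3 was 4.55-fold higher (log2 2.19 ± 0.20, adjusted p = 1.16e-05). RFX2, a regulator of ciliary genes (chromosome 19, 5993164 to 6199572), held 124, 102 and 107 CPM in shControl and 59.5, 57.3 and 63.9 CPM in shNRF2, 1.83-fold lower (log2 -0.87 ± 0.09, adjusted p = 4.36e-05). It overlaps ACSBG2 on the other strand. ARID3A and IRX1, 2 DNA-binding factors, had log2 changes of -0.67 ± 0.14 and -0.65 ± 0.15, each lost in 4 settings. Of the 7 tested cilia genes, DNAH5, a dynein heavy chain of motile cilia, was also lower, at -0.53 ± 0.14 (lost in 6 settings), and the other 5 besides RFX2 were not called.

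Of 16 tested genes of growth signalling, 1 was called lower and 1 higher. Among matched entries 5.94% were called lower and 3.89% higher, and among all entries 2.56% and 2.78%. MOB3A, a MOB kinase activator (chromosome 19, 2071038 to 2096673), was at 266, 254 and 238 CPM in shControl and 145, 126 and 138 CPM in shNRF2. This was 1.85-fold lower (log2 -0.89 ± 0.08, adjusted p = 5.57e-06) and nearly the same in all treatments. IZUMO4, which overlaps MOB3A on the other strand, was at 3.87 to 5.07 CPM in shControl and 1.40 to 1.99 CPM in shNRF2 (log2 -1.41 ± 0.28, adjusted p = 0.00935). RICTOR, the defining subunit of mTOR complex 2 (chromosome 5, 38937919 to 39074408), held 166, 229 and 242 CPM in shControl and 299, 281 and 276 CPM in shNRF2 (log2 0.44 ± 0.12, adjusted p = 0.0497). Its untreated shControl value was the lowest of the 6 libraries. The ratio was 1.80 untreated, 1.23 in H2O2 and 1.14 in CeO2, and the call was lost without that library. The call was also lost without the H2O2 shControl library or any 1 shNRF2 library. In all it was lost in 11 of the 17 settings, both other scalings and the filter at 5 CPM among them. The other 14 of the 16 tested members, among them HRAS, MAP2K2 and STK11, were not called.

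Of 18 tested genes of inflammation and interferon, IFITM1 was higher and none was lower, with a median of 0.16 and 13 of 18 above 0. The median over the matched entries was -0.08, and 3.89% of them were called higher, against 2.78% of all entries. IFITM1, an interferon-induced membrane protein that restricts viruses (chromosome 11, 313506 to 315272), was at 297, 191 and 219 CPM in shControl and 329, 334 and 356 CPM in shNRF2. It was 1.45-fold higher (log2 0.54 ± 0.12, adjusted p = 0.0136), with a ratio of 1.11 untreated against 1.74 and 1.63 under exposure. The call was lost without either H2O2 library or the CeO2 shNRF2 library. IFITM1 overlaps its close paralog IFITM2, at 0.23 ± 0.13, and IFITM3 was at 0.27 ± 0.12, so reads may be split between them. The cytokine receptor genes OSMR, IL7R and LIFR had log2 changes of 0.20, 0.06 and 0.09, and PTGER4, a receptor of prostaglandin E2, 0.42 ± 0.12 (adjusted p = 0.0657).

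In the list of glycan and sugar enzymes, 3 of 7 tested were higher and none was lower, while the median was -0.03. Among matched entries 3.89% were called higher, and among all entries 2.78%. FUT3, the Lewis fucosyltransferase (chromosome 19, 5842888 to 5851474), was at 8.37, 9.08 and 6.98 CPM in shControl and 9.78, 21.2 and 11.4 CPM in shNRF2. The H2O2 library of shNRF2 stood above the rest, and the untreated ratio of 1.17 had an interval from 0.807 to 1.70. Its log2 change was 0.75 ± 0.19 (adjusted p = 0.0359), a call lost without either exposed library of either derivative. The call was lost in 7 of the 17 settings in all, DESeq2 among them, and FUT3 has close paralogs that may share reads. PGGHG, which removes glucose from hydroxylysine-linked sugars of collagen (chromosome 11, 289135 to 296107), held 17.7, 20.0 and 17.2 CPM in shControl and 24.8, 32.8 and 26.1 CPM in shNRF2. It was 1.52-fold higher (log2 0.60 ± 0.13, adjusted p = 0.0127), lost without either H2O2 library or the CeO2 shNRF2 library. GNE, which starts the synthesis of sialic acid, rose by 0.36 ± 0.09 on the log2 scale (adjusted p = 0.0274), lost its call in 6 settings and overlaps CLTA. In lipid metabolism, HACD4, an enzyme of very long fatty acid synthesis, rose by 0.36 ± 0.09, a call lost in 10 of the 17 settings, DESeq2 among them, and 10 of 11 tested genes were not called.

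**Figure D3:**
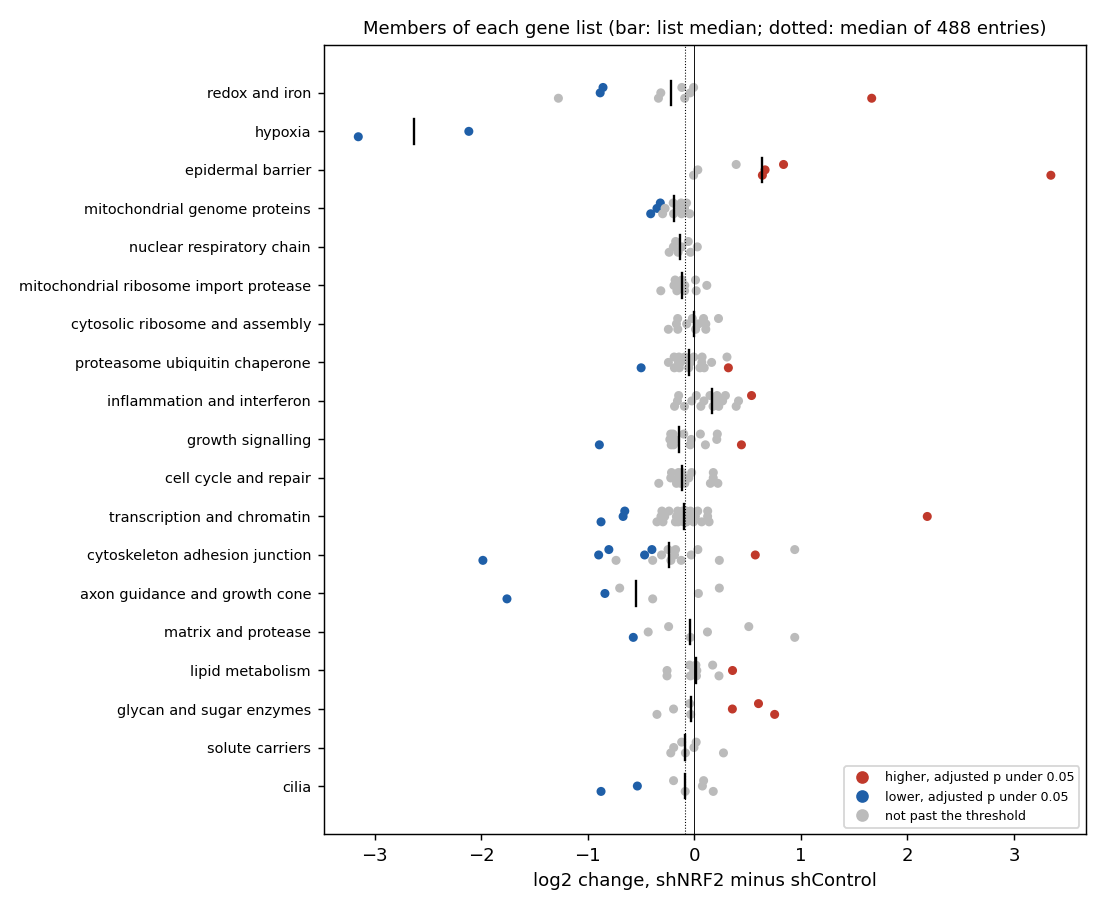
Log2 change (shNRF2 minus shControl) of every tested member of the 19 gene lists: each point is 1 gene, red or blue where it passed the threshold, the black bar is the list's median and the dotted line the median of the 488 matched entries. The epidermal barrier list lies to the right with a median of 0.64, and the 2 hypoxia genes lie far to the left. The mitochondrial and ribosomal lists form narrow bands, and all 13 protein genes of the mitochondrial genome lie below 0.

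Of the 13 protein genes of the mitochondrial genome, 3 were lower in shNRF2 and none was higher. All 13 log2 changes were below 0 (-0.41 to -0.04, median -0.19). The median over the matched entries was -0.08, and 5.94% of them were called lower, against 2.56% of all entries. MT-CO1, the catalytic subunit of cytochrome c oxidase, fell by 0.35 ± 0.07 on the log2 scale (adjusted p = 0.0136), and MT-ND4 and MT-ND6, subunits of complex I, fell by 0.32 ± 0.08 and 0.41 ± 0.10. MT-ND6 held 1208, 862 and 935 CPM in shControl and 828, 760 and 664 CPM in shNRF2. The mitochondrial share of all counts was 9.30%, 10.0% and 9.15% in shControl and 8.91%, 8.83% and 7.41% in shNRF2. These genes share 1 genome and long common transcripts, so they are not independent. All 3 calls were lost with only the 6 compared libraries. MT-ND4 also lost its call without any 1 library other than the untreated shControl library, MT-CO1 without either H2O2 library or the CeO2 shNRF2 library, and MT-ND6 without the untreated or CeO2 shNRF2 library.

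Nuclear genes for the same organelle were not called: 0 of 8 genes of the respiratory chain (median -0.13; SDHA at -0.06) and 0 of 11 of mitochondrial ribosome, import and proteases (median -0.12) by edgeR. The cytosolic ribosome and its assembly also held 0 calls among 12 tested, with a median of 0.00, as did 0 of 16 cell cycle and repair genes (median -0.12; CDKN2A at -0.33, MELK at -0.22) and 0 of 7 solute carriers. At an unadjusted p under 0.05 these 5 lists held 0, 1, 1, 4 and 2 genes in this order. DESeq2 and limma-voom called 0 in each. Of all matched entries 9.84% were called in either direction, and 5.33% over the whole table. For lists this small, 0 calls lies near these shares. Among the 19 tested genes of the proteasome, ubiquitin system and chaperones, UBE2R2, a ubiquitin-conjugating enzyme of the CDC34 family, fell by 0.50 ± 0.08 on the log2 scale (adjusted p = 0.00171). UBAP2, a ubiquitin-associated protein, rose by 0.32 ± 0.09 (adjusted p = 0.0489). Its call was lost in 11 of the 17 settings, among them DESeq2, both other scalings and 4 of the 6 omissions of a library. PSMD13, a subunit of the proteasome cap, was at -0.14 ± 0.10. In the matrix and protease list ADAMTS12, a secreted metalloprotease, was lower (log2 -0.57 ± 0.12, adjusted p = 0.014), at 153, 239 and 223 CPM in shControl against 133, 165 and 113 CPM in shNRF2. Its untreated shControl value was below the H2O2 value of shNRF2, so the groups overlapped, and the call was lost in 4 settings.

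The 19 lists held 35 of the 48 called entries, and the other 13 lay in none. APCDD1 (chromosome 18, 10454628 to 10489948), a membrane inhibitor of WNT signalling expressed in hair follicles, was almost absent from shControl, with 1, 3 and 1 counts, against 4.96, 3.81 and 4.07 CPM in shNRF2. Over the 3 libraries of each derivative, shNRF2 held 90 counts and shControl 5. MATK, a kinase related to CSK (chromosome 19, 3777970 to 3802129), was at 0.977 to 1.09 CPM in shControl and 2.98, 7.12 and 4.19 CPM in shNRF2. Both are given as levels, with no test, because neither reached 1 CPM in 3 of the 9 libraries other than those of shNRF2.

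FYB1, an adaptor of immune cell signalling (chromosome 5, 39105255 to 39274528), held 435, 525 and 510 CPM in shControl and 687, 669 and 680 CPM in shNRF2. The shNRF2 libraries were nearly equal to each other and all above shControl. FYB1 was 1.39-fold higher (log2 0.47 ± 0.08, adjusted p = 0.00257), a call lost with only the 6 compared libraries. SBNO2, a transcriptional coregulator that lies next to GPX4 (chromosome 19, 1107636 to 1174283), was at 375, 446 and 534 CPM in shControl and 314, 298 and 236 CPM in shNRF2. Like GPX4, it was highest in exposed shControl, and the ratio went from 0.838 untreated to 0.442 in CeO2. SBNO2 was 1.59-fold lower (log2 -0.67 ± 0.13, adjusted p = 0.00655), lost without the CeO2 shNRF2 library.

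The remaining 8 are given more briefly. SRD5A1, a steroid reductase that activates testosterone, rose by 0.34 ± 0.09 on the log2 scale, a call lost in 7 of the 17 settings. PPP4R1, a regulatory subunit of protein phosphatase 4, had a log2 change of -0.51 ± 0.08 (adjusted p = 0.00104), ELAVL2, an RNA-binding protein of neurons, -0.53 ± 0.10, FAM219A -0.45 ± 0.09 and IMPA2, an inositol monophosphatase, -0.44 ± 0.11. Their calls were lost in 1, 3, 3 and 8 settings in this order. EEF1A1P13, at 20.6, 18.4 and 11.7 CPM in shControl and 11.3, 11.1 and 9.02 CPM in shNRF2 (log2 -0.68 ± 0.18, adjusted p = 0.043), and ANXA2P2 (-0.38 ± 0.10, lost in 6 settings) are processed pseudogenes whose reads may come from their parent genes elsewhere. EEF1A1P13 lost its call without any 1 compared library other than the CeO2 shControl library. The eighth, IZUMO4, was given with MOB3A above.

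**Figure D4:**
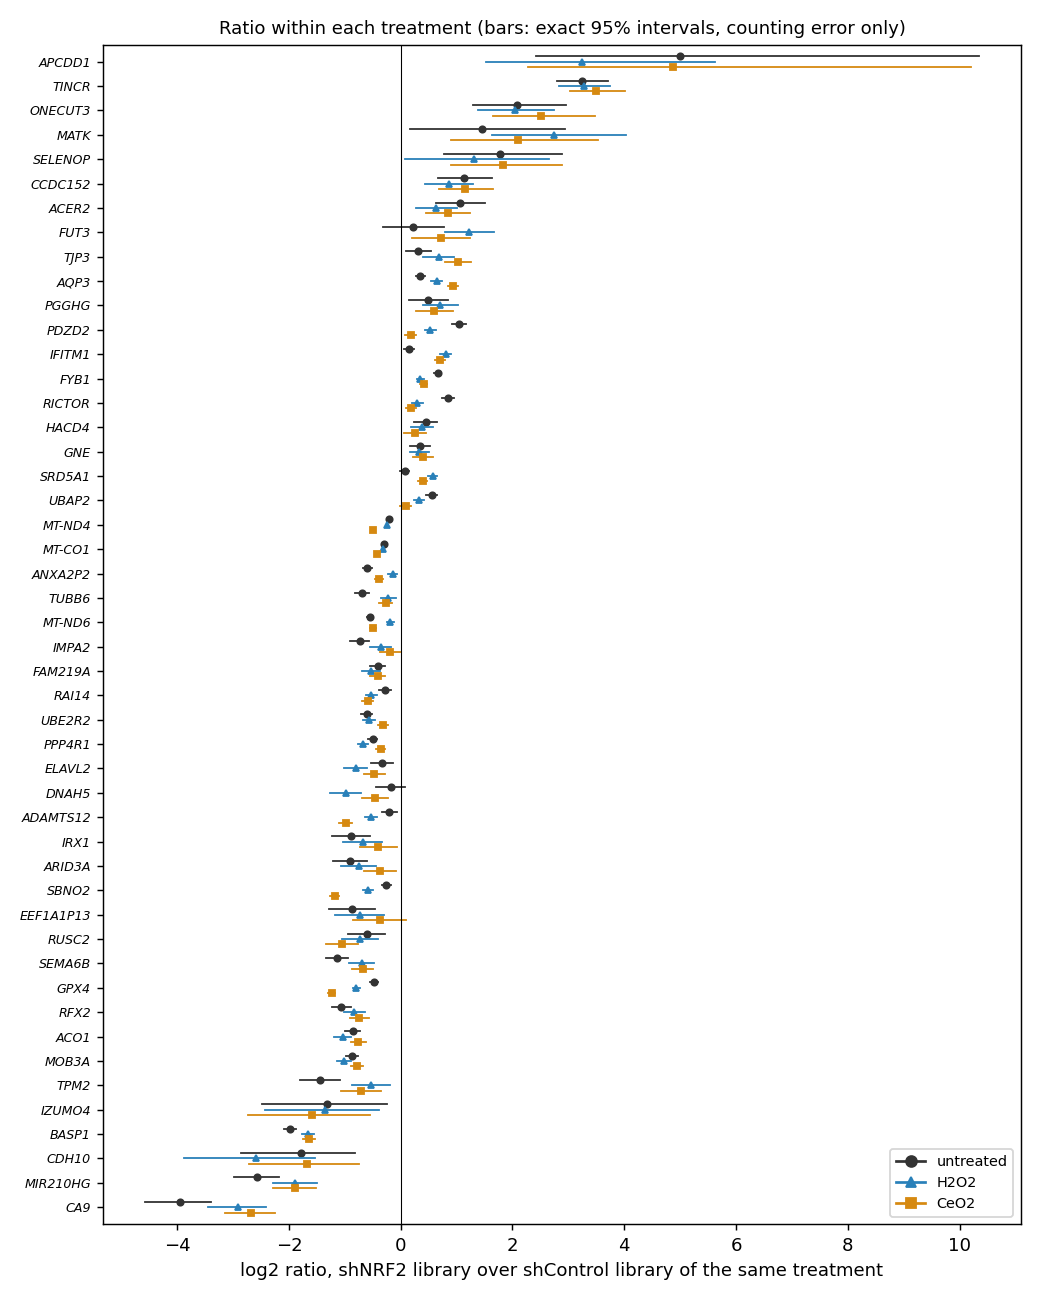
Ratio of the shNRF2 to the shControl library within each treatment for the 48 called entries, on a log2 axis: black circles are untreated, blue triangles H2O2 and orange squares CeO2, and bars are exact 95% intervals that cover counting error only. The 3 points of each gene lie on the same side of 0, and those of CA9, PDZD2, RICTOR, GPX4 and SBNO2 are spread more widely than their bars.

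The keratinocyte identity of the libraries could be checked on few genes. PKP3 was at 1731 to 2539 CPM in the 6 libraries, AQP3 and TINCR had the values above, and IFNK had at most 2 counts. KRT5, KRT14, KRT10 and TP63, and MYOM1 of muscle, lie outside the stretches and were not read. Many, but not all, of the listed markers of other cell types had at most 1 count in any library. These were SLC45A2 of melanocytes, TEK of endothelium, CD72 and SIT1 of lymphocytes, and ATCAY and SLC6A3 of neurons. The same held for CIDEA and PLIN5 of fat, AGXT2 of liver and C7 and FGF10 of stroma. The others on these lists inside the stretches, PAX5, LINGO2, CDH18, C9, CREB3L3 and NPR3, had at most 8 counts, and the lymphocyte marker IL7R stood at 505 to 620 CPM with no call. ELAVL2 and ADAMTS12, the only called genes on these marker lists besides AQP3 and TINCR, were present in all libraries (47.2 to 82.4 and 113 to 239 CPM). In bulk RNA, a change in the share of cells that express a gene and a change in RNA per cell cannot be told apart.

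The same fit compared shNRF2 directly with the other hairpins. In the stretches, 26.2% of entries differed between shNRF2 and shMLL1 and 38.3% between shNRF2 and shUTX (11.3% and 23.4% over all entries), so differences between derivatives were common. TINCR was higher in shNRF2 than in shMLL1 (20.8 to 27.7 CPM; log2 1.41 ± 0.15, adjusted p = 2.36e-05) and than in shUTX (29.02 to 50.1 CPM; log2 0.83 ± 0.15, adjusted p = 9.14e-04). In TINCR every shMLL1 and shUTX library was itself above every shControl library (5.44 to 6.97 CPM). In AQP3 the shMLL1 and shUTX libraries lay within the shControl range (197 to 291 CPM). AQP3 in shNRF2 also exceeded shMLL1 (log2 0.52 ± 0.12, adjusted p = 0.00901) and shUTX (0.61 ± 0.12, adjusted p = 0.00149). SELENOP, TJP3, FYB1, SRD5A1 and PDZD2 were likewise higher than in either, by 0.39 to 2.90 on the log2 scale. Other genes that were higher than in shControl were lower than with another hairpin. ONECUT3 was at 16.9 to 23.7 CPM in shUTX (log2 -0.74 for shNRF2 against it, adjusted p = 0.00383), and ACER2 (-0.46), UBAP2 (-0.52) and GNE (-1.01) were also below shUTX. CCDC152 was at 25.9 to 31.0 CPM in shMLL1 (-0.72, adjusted p = 0.0052). IFITM1, at 311 to 323 CPM in shMLL1, differed from it by 0.10 (adjusted p = 0.626). APCDD1 had no count in any shMLL1 library and at most 0.473 CPM in shUTX.

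CA9, MIR210HG and DNAH5, though lower than in shControl, were higher in shNRF2 than with either other hairpin. CA9 was at 1.71 to 2.74 CPM in shMLL1 (log2 1.26 ± 0.31 for shNRF2 against it, adjusted p = 0.0153) and at 0.576 to 1.42 CPM in shUTX (2.43 ± 0.37, adjusted p = 2.90e-04). MIR210HG differed by 1.32 ± 0.21 and 2.13 ± 0.24. CDH10 (log2 2.30) and ADAMTS12 (1.97) were higher in shNRF2 than in shMLL1 past the threshold. SEMA6B (2.55), IRX1 (1.05), MOB3A (0.70) and IMPA2 (0.35) were higher than in shUTX, where SEMA6B held 7.03 to 8.65 CPM. In the other direction, 9 of the 29 lower genes were below shMLL1 and 10 below shUTX. Of the 29 lower genes, 4 (SBNO2, UBE2R2, PPP4R1 and ANXA2P2) were lower in shNRF2 than in either, by -0.64 to -0.27 on the log2 scale. GPX4 was lower than in shUTX (log2 -0.51 ± 0.14, adjusted p = 0.018), with 647 to 806 CPM there, and the difference from shMLL1 (601 to 823 CPM) was -0.42 ± 0.14 (adjusted p = 0.0751). BASP1 was 143 to 202 CPM in the other 2 lines, with a log2 difference of -0.31 ± 0.09 from shMLL1 (adjusted p = 0.0362) and -0.11 ± 0.09 from shUTX (adjusted p = 0.402). ACO1 was at 80.7 to 87.1 CPM in shMLL1 and 122 to 124 CPM in shUTX, with log2 differences of 0.14 ± 0.08 from the first (adjusted p = 0.339) and -0.40 ± 0.08 from the second (adjusted p = 0.00288). In CA9, MIR210HG, BASP1 and ACO1 every shMLL1 and shUTX library was also below every shControl library, so these deficits were not particular to shNRF2. In GPX4 the ranges of shMLL1 and shUTX overlapped that of shControl. The level differences of shMLL1 and shUTX from shControl were not tested.

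Promoter letters were counted for the called genes. RefSeq promoter sequences (GRCh38.p14, 250 bases before to 50 after the start) were found for 35 of the 48. The core of the antioxidant response element was searched as TGACNNNGC on both strands, and that of the hypoxia response element as ACGTG on both strands. The antioxidant core was present in 5 of the 20 lower genes with a promoter (25%) and 2 of the 15 higher ones (13.33%), against 16.03% of tested matched entries and 13.56% of all 27305 promoters. The hypoxia core was in 5 of 20 lower genes (25%) and 4 of 15 higher ones (26.67%), against 26.24% and 21.61%.

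Among the lower genes, ADAMTS12, FAM219A, IZUMO4, RAI14 and RUSC2 held the antioxidant core, and among the higher genes SELENOP and UBAP2. The bases before the start of RUSC2 and SELENOP are shown as a gene that fell and a gene that rose with the core, which is in capitals.
RUSC2, chr9:35489861-35490110, plus strand: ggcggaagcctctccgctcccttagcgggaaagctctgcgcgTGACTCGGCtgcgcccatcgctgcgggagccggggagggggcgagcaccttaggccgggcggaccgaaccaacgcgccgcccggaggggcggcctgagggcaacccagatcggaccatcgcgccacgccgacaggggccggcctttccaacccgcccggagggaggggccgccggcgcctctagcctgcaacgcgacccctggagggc
SELENOP, chr5:42811893-42812142, minus strand: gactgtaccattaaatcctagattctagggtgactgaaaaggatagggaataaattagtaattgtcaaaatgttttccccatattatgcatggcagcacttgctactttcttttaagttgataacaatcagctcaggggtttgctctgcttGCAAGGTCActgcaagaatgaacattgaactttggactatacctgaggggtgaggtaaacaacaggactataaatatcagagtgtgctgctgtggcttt
The core lies at -208 to -200 in RUSC2 and, on the other strand, at -99 to -91 in SELENOP. The windows of GPX4 and ACO1 did not hold these letters. A match is a description of the letters, and binding was not measured.

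Finally, the fit with a term for exposure asked whether the difference between shNRF2 and shControl was the same with and without an agent. It changed for 126 of 488 matched entries (25.8%; 106 toward a more positive difference under exposure, 21.7%, and 20 toward a more negative one, 4.1%), against 1794 of 10800 over the table (16.6%; 8.02% and 8.59% by direction). This fit has 3 residual degrees of freedom, and the baseline of each line is a single untreated library. The 5 entries with the smallest p were ATP5F1D and NDUFS7 of the respiratory chain, the ribosomal proteins RPL36 and RPLP2, and CDKN2A, the locus of p16 and ARF. ATP5F1D held 635, 339 and 320 CPM in shControl and 338, 398 and 353 CPM in shNRF2 (change of the log2 difference 1.10 ± 0.12, adjusted p = 1.81e-05). RPL36 held 2105, 1282 and 1233 CPM in shControl and 1284, 1386 and 1342 CPM in shNRF2 (0.83 ± 0.11, adjusted p = 9.22e-05). In both, the untreated shControl library alone was high and the other 5 were alike.

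In the same fit, the exposure term of shControl stands for H2O2 against untreated, because CeO2 has a further term shared by all derivatives. This shControl term passed the threshold in 184 of the 488 matched entries (37.7%), 29 higher and 155 lower than untreated. It did so in 3206 of all entries (29.7%), 1646 higher and 1560 lower. Across 365 coding genes of the stretches, the untreated minus the exposed log2 level had a Spearman correlation with transcript length of -0.493 in shControl and 0.135 in shNRF2 (genes are not independent replicates). With the same shControl libraries as baseline, the difference of shMLL1 from shControl changed with exposure in 7 matched entries (1.43%, against 0.648% of all) and that of shUTX in 108 (22.1%, against 14.4%). The exposure response of shNRF2 differed from that of shMLL1 and of shUTX in 0 of 488 matched entries each by edgeR (70 and 17 at an unadjusted p under 0.05), and in 16 (0.148%) and 0 of all entries. No second untreated shControl library was analysed here, and the part of that library in the changed differences was not tested.

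Of the 48 called genes, 11 also changed with exposure. The share was 25.8% among all matched entries and 16.6% over the whole table, so such a change was not particular to the called genes. The difference in GPX4 (-0.54 ± 0.15), SBNO2 (-0.63 ± 0.17) and ADAMTS12 (-0.55 ± 0.18) became more negative on the log2 scale, so shNRF2 fell further below shControl. AQP3 (0.44 ± 0.14), IFITM1 (0.61 ± 0.13) and SRD5A1 (0.41 ± 0.12) moved further above it. In RICTOR (-0.61 ± 0.13) and PDZD2 (-0.69 ± 0.14) the excess shrank, and in CA9 (1.15 ± 0.35), TPM2 (0.81 ± 0.28) and TUBB6 (0.45 ± 0.14) the deficit shrank. All 11 had adjusted p between 0.00295 and 0.0488. With the exposed libraries alone, 70 matched entries were called between shNRF2 and shControl, and 42 of the 48 were among them. The exceptions were EEF1A1P13, IMPA2, TUBB6, UBAP2, HACD4 and RICTOR.

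**Figure D5:**
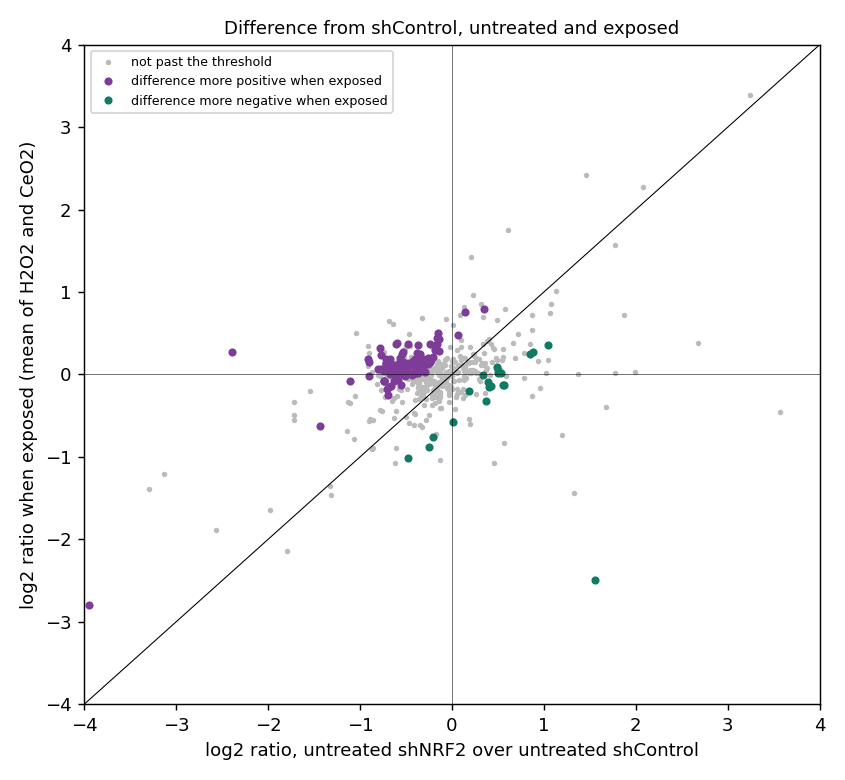
Log2 ratio of shNRF2 to shControl without treatment (horizontal axis) and as the mean of the H2O2 and CeO2 ratios (vertical axis) for 484 matched entries, with 4 outside the axes: purple and green points are entries whose difference changed toward more positive or more negative values past the threshold, and the line marks equal values. Most purple points sit left of 0 and near 0 in height.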

How the data were processed

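RNA-seq counts of 12 HaCaT libraries, 1 per combination of derivative and treatment, were used. The authors deposited unnormalized read counts, 1 row per Ensembl identifier, in 2 tables, which share the untreated libraries and differ in 1 cell, the PRDX4 entry of untreated shUTX (1 count against 0). Trimmomatic 0.39, HISAT2 2.2.1, SAMtools 1.12, HTSeq 0.11.1 and GRCh38 are named per the submitters' processing notes. Not given in the sources used here: settings, annotation and strand use. For untreated libraries, counts came from the H2O2 table.

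Of 61498 entries, 61399 matched a gene name and 58298 GENCODE 29, the source of coordinates and types. Names were read in the stretches given above. The stretches, members, lists and tests were chosen with earlier results of these data known. Entries were tested where 3 or more libraries reached 1 CPM, sizes were scaled by TMM, and counts of all 12 libraries were fitted with edgeR 4.0.16 (R 4.3.3; quasi-likelihood, two-sided, additive in derivative and treatment, 6 residual degrees of freedom). A second, exploratory fit had derivative, exposure, agent and derivative by exposure (3 residual degrees of freedom). P-values measure the spread among these libraries, which the labels do not call separate cultures. SE is the log2 change divided by the root of F. Ratios of 2 libraries have exact conditional binomial 95% intervals, and a count of 0 allows up to 3 counts; both cover counting error only.

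Values in every library are given for called genes averaging 5 CPM or more whose sign was the same in all treatments: the 12 with the highest and the 12 with the lowest log2 change. APCDD1, MATK, SELENOP, CDH10, IZUMO4, ADAMTS12 and MT-ND6 were given in addition, after their values were seen. Alternatives were DESeq2 1.42.0, limma-voom (limma 3.58.1), scaling by RLE or upper quartile, all entries with any count, a higher filter (5 CPM), no treatment block, only the 6 compared libraries, the CeO2 table's untreated counts and each compared library left out. The exposure responses of the other derivatives, the exposed libraries alone and removal of the trend with transcript length (fitted on 322 coding genes) were added after seeing the data. Scripts were tested on simulated data (200 changed entries).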

Additional observations from a re-analysis of the deposited data

Results flagged for a closer look

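The difference between shNRF2 and shControl itself differed between untreated and exposed cells for 126 matched entries, by the derivative by exposure term of the exploratory edgeR fit. Values are the change of the log2 difference under exposure. The 5 smallest p belonged to ATP5F1D (1.10), NDUFS7 (0.98), RPL36 (0.83), RPLP2 (0.86) and CDKN2A (0.89). Among genes called over all treatments, the difference grew for GPX4 (-0.54), SBNO2 (-0.63), ADAMTS12 (-0.55), IFITM1 (0.61), SRD5A1 (0.41) and AQP3 (0.44). It shrank for RICTOR (-0.61), PDZD2 (-0.69), CA9 (1.15), TUBB6 (0.45) and TPM2 (0.81). All rest on the same untreated shControl library as baseline, which stood apart from the other 5 libraries.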

How the results depend on the processing

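Against 576 called entries in all and 48 in the stretches, no filter beyond a count above 0 gave 907 and 69, no treatment block 328 and 31, and only the 6 compared libraries 159 and 16. RLE and upper-quartile scaling, a filter at 5 CPM, DESeq2, limma-voom, the other table's untreated counts and the settings added later (exposed libraries alone, 754 and 70, and the length trend removed, 598 and 58) stayed within 1.5 times. Leaving out 1 library gave 262 to 826 and 24 to 64. In all, 314 and 28 were called without the H2O2 shControl library, 288 and 34 without the untreated shNRF2, 262 and 27 without the H2O2 shNRF2 and 268 and 24 without the CeO2 shNRF2 library. Of the 48, between 5 (untreated or CeO2 shControl) and 24 (CeO2 shNRF2) lost the call under such an omission. DESeq2 called 686 and 83 changed differences with exposure, against 1794 and 126; omitting an exposed library gave 1325 to 2337 and 100 to 164. The cause of these shifts was not tested. Omissions and the 6-library fit also used fewer libraries. No paired analysis was possible because each combination has 1 library and replicate numbers pair nothing; treatment was the block.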
